A study of Rattus norvegicus with 9 samples.

Results

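The genes described here are 10 transcription factors of the cardiac lineage, Gata4, Gata6, Nkx2-5, Mef2a, Mef2c, Mef2d, Tbx5, Tbx20, Hand1 and Hand2. They were chosen by name, with earlier results of these data known. All 10 are among the 18629 genes of the table and passed the filter on low counts. The cells were primary cardiomyocytes isolated from Sprague-Dawley rats of 1 to 2 days, kept first in medium with 10% fetal bovine serum and then 14 h in 1% serum with 1 g/L glucose. Per the sample labels, all cells were then exposed for 48 h to 33 mM glucose and 100 nM insulin, and Ad-GFP cells without this treatment, which the labels mention, were not analysed here. The 3 groups differed in the adenovirus they received. The control carried green fluorescent protein (Ad-GFP), a second group carried wild-type Yap1 (Ad-Yap1 WT), and the last carried a short hairpin RNA against Yap1 (Ad-Yap1 shRNA, also called the hairpin), with 3 libraries each. The title of the study names an axis of Yap, miR-22-3p and Sirt1, and Yap1 is a transcriptional co-activator of the Hippo pathway that partners with TEAD factors. No group carried a control hairpin, so an effect of the hairpin vector and an effect of less Yap1 cannot be told apart. The dose of virus and the species of the Yap1 sequence are not given in the sources used here. Nothing in the labels says whether the 3 libraries of a group came from separate isolations, so p-values measure only the spread between these libraries.

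GATA4, NKX2-5, TBX5 and TBX20, MEF2 and HAND proteins bind DNA together at the enhancers of contractile, calcium-handling and natriuretic peptide genes and also at one another's genes. They specify heart muscle in the embryo and keep its gene program active after birth. HAND1 and HAND2 act earlier and are best known from the forming left and right ventricles and, for HAND2, from the fibroblasts and epicardium of the heart.

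The 9 libraries held 6103220 to 15368465 counts, with the smallest totals in the Ad-Yap1 shRNA group. Levels are given as CPM (counts scaled to the library total) after TMM scaling, which adjusts for differences in library composition. As a check of the labels, Yap1 stood at 195 ± 4.37 CPM (SD, n = 3) with Ad-GFP, 664 ± 132 in Ad-Yap1 WT cells and 95.6 ± 0.36 in hairpin cells. In TPM it was 54.1 ± 1.70, 415 ± 105 and 31.3 ± 0.94, and the transcript length implied by count over TPM stood at 50.2% of the Ad-GFP value with Ad-Yap1 WT. Heart muscle markers were abundant in the controls: the summed level of 10 such genes, among them Myh6, Tnnt2 and Ryr2, was 21360 to 21750 CPM with Ad-GFP. The same sum was 4157 to 6044 CPM with Ad-Yap1 WT and 1940 to 2127 CPM with Ad-Yap1 shRNA. All 10 genes were called lower in both, as were 27.6% of all genes tested. Fibroblast genes were also abundant, at 18810 to 20030 CPM in sum with Ad-GFP for 10 genes. In such bulk RNA, fewer cells of a type and less RNA per cell cannot be told apart, and this touches every result below.

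Most of the 10 factors were lower in both Yap1 groups than with Ad-GFP, by less than 2.5-fold. With Ad-Yap1 WT, 8 factors fell, Hand1 rose (a call lost under several settings given below) and Hand2 did not pass the test (edgeR quasi-likelihood test, Benjamini-Hochberg adjusted p under 0.05 over 13708 genes). Of all genes tested, 63.8% were called in that comparison, 31.8% as lower and 32.0% as higher. With Ad-Yap1 shRNA, 7 factors fell, Mef2a rose, and Hand1 and Hand2 did not pass. On log2(TPM + 1) with limma, 5 of the 10 factors were called lower and 1 higher with Ad-Yap1 WT (Mef2a, Mef2c and Tbx5 did not pass). With the hairpin 4 were called lower and 1 higher there, and Mef2d turned to 0.04. In the edgeR test of the hairpin 78.3% of all genes were called, 39.1% as lower and 39.2% as higher, so a call by itself was common. The median log2 fold change of the 10 factors was -0.55 with Ad-Yap1 WT and -0.39 for the hairpin. Over all tested genes the medians were 0.00 and -0.01. Gata4, Gata6, Nkx2-5, Mef2c, Mef2d, Tbx5 and Tbx20 were lower in both comparisons, as were 27.6% of all genes; both comparisons use the same 3 Ad-GFP libraries. In CPM the libraries of the 2 groups did not overlap for 8 factors with Ad-Yap1 WT, all lower (70.7% of all genes, 35.4% lower and 35.3% higher). With the hairpin they did not overlap for 8 factors, 7 lower and 1 higher (80.2% of all genes, 40.3% lower and 39.9% higher). The summed level of the 10 factors was 1272 to 1290 CPM with Ad-GFP, 828 to 903 with Ad-Yap1 WT and 1001 to 1019 with Ad-Yap1 shRNA. It thus stood at 68.3% and 78.9% of the control, while the sum of the 10 heart muscle markers stood at 23.9% and 9.47%. The hairpin sum of the factors includes the rise of Mef2a, whose mean was 348 CPM there. Its mean was 257 CPM in control cells and 207 CPM in Ad-Yap1 WT cells. The higher hairpin percentage therefore does not mean that each factor fell less there. In CPM, Nkx2-5 and Tbx20 fell further in hairpin cells than in Ad-Yap1 WT cells, and Gata4 and Mef2d fell less. The part of cell makeup in the fall of the factors was not tested.

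**Figure D1:**
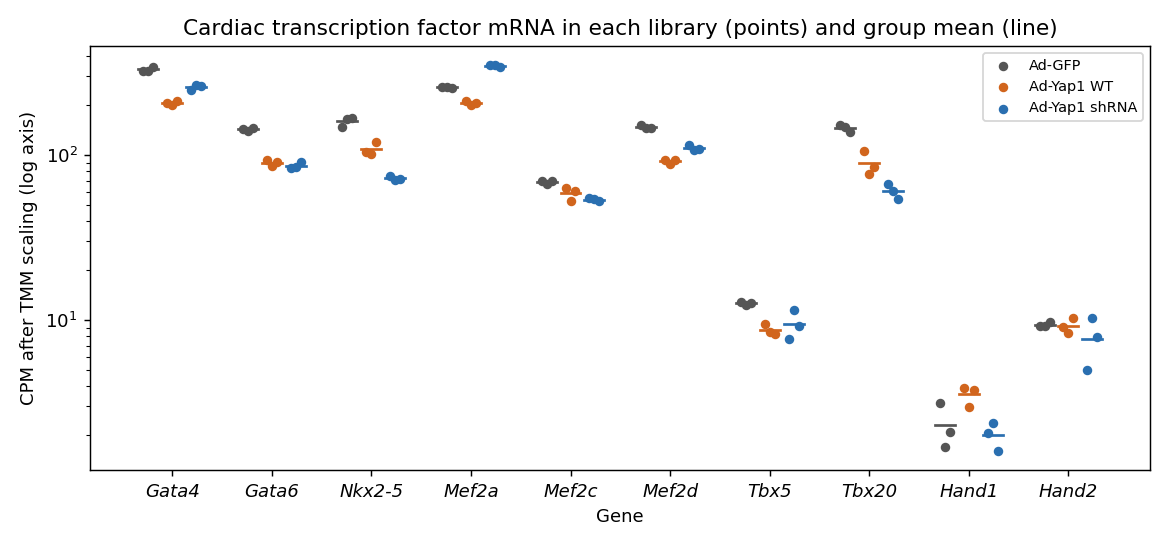
Level of each of the 10 factors in each library (points) with the group mean (line), in CPM after TMM scaling on a log axis. For 7 factors all Ad-GFP points lie above all points of both Yap1 groups (on the TPM scale the hairpin points of Mef2c, Mef2d and Tbx5 and the Ad-Yap1 WT points of Mef2c overlap the controls), while Mef2a is highest with Ad-Yap1 shRNA and Hand1 and Hand2 lie low with overlapping points.

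NKX2-5 is the homeodomain factor of the heart and a binding partner of GATA4 and TBX5. Its gene (NCBI gene 114109, chr10:16635989-16638758, plus strand, coordinates of the deposited table, rn6) is listed with 1 transcript. Nkx2-5 was measured at 148, 166 and 167 CPM in the Ad-GFP libraries, at 105, 101 and 120.0 in Ad-Yap1 WT cells and at 74.6, 71.0 and 71.5 in hairpin cells. The 3 groups did not overlap, and every hairpin library was below every Ad-Yap1 WT library. Nkx2-5 fell with Ad-Yap1 WT by 0.56 on the log2 scale (SE 0.07, edgeR adjusted p = 1.242e-05). With Ad-Yap1 shRNA it was 2.21-fold lower than with Ad-GFP (log2 fold change -1.15, SE 0.08, edgeR adjusted p = 1.157e-08).

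TBX20 and TBX5 are T-box factors; TBX20 keeps the working muscle program in chamber cells, and TBX5 acts with NKX2-5 and GATA4 in atria, left ventricle and conduction tissue. Tbx20 (gene 315497, chr8:25849394-25904570, minus strand) had the widest range of group means of the 10 factors. It stood at 153, 149 and 139 CPM with Ad-GFP, at 105.5, 77.0 and 85.05 in Ad-Yap1 WT cells and at 66.3, 60.4 and 54.4 in hairpin cells. No library of one group reached into another. Tbx20 was 1.65-fold lower with Ad-Yap1 WT (log2 fold change -0.72, SE 0.10, edgeR adjusted p = 3.052e-05). It was 2.43-fold lower with Ad-Yap1 shRNA (-1.28, SE 0.11, edgeR adjusted p = 1.286e-07). Tbx5 (gene 304514, chr12:42059688-42148226, plus strand) was much scarcer in counts, at 12.9, 12.3 and 12.7 CPM with Ad-GFP. It was 9.52, 8.47 and 8.29 CPM with Ad-Yap1 WT and 7.67, 11.5 and 9.18 CPM with Ad-Yap1 shRNA, so the hairpin libraries scattered widely but stayed below every control in CPM. In TPM, hairpin replicate 2 (7.28) was above every control (6.46 to 6.85). Tbx5 fell by 0.53 with Ad-Yap1 WT (log2, SE 0.13, edgeR adjusted p = 0.002717) and by 0.42 with Ad-Yap1 shRNA (SE 0.14, edgeR adjusted p = 0.01315). The hairpin result did not pass without Ad-Yap1 shRNA replicate 1 (log2 fold change -0.30, edgeR adjusted p = 0.0672), and on log2(TPM + 1) with limma neither did (adjusted p = 0.0613 and 0.258). Tbx5 made up 10.5% ± 0.31 (SD, n = 3) of the summed TPM of Tbx5 and Tbx20 with Ad-GFP, 11.3% ± 0.41 in Ad-Yap1 WT cells and 17.6% ± 5.01 in hairpin cells, where single libraries ran from 11.9% to 21.6%. TPM scales reads by transcript length and so allows a comparison between genes.

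GATA4 and GATA6 are zinc finger factors with overlapping tasks in heart muscle, where GATA4 also drives growth programs. Both fell in both Yap1 groups, and whether the fall differed between the 2 genes was not tested. Gata4 (gene 54254, chr15:46386703-46458679, plus strand) was at 324, 325 and 344 CPM with Ad-GFP. It was at 207, 202 and 212 CPM with Ad-Yap1 WT and at 248, 267 and 262 CPM with Ad-Yap1 shRNA. The 3 groups were separate, with the hairpin libraries between the other 2 groups. Gata4 was 1.60-fold lower with Ad-Yap1 WT (log2 fold change -0.68, SE 0.05, edgeR adjusted p = 1.344e-07) and 1.28-fold lower with Ad-Yap1 shRNA (-0.35, SE 0.05, edgeR adjusted p = 2.937e-05). RefSeq lists 1 long noncoding locus that overlaps Gata4 and 1 that overlaps Mef2c, whose reads could not be set apart without strand. Gata6 (gene 29300, chr18:2415821-2447087, plus strand) was at 143, 141 and 146 CPM with Ad-GFP, at 93.0, 85.6 and 90.6 in Ad-Yap1 WT cells and at 83.1, 85.2 and 90.5 in hairpin cells. Both Yap1 groups lay below all controls and overlapped each other. Gata6 fell by 0.67 with Ad-Yap1 WT (log2, SE 0.05, edgeR adjusted p = 1.875e-07) and by 0.73 with Ad-Yap1 shRNA (SE 0.06, edgeR adjusted p = 4.658e-08). Of the summed TPM of the pair, Gata4 made up 67.3% ± 0.50 with Ad-GFP, 67.3% ± 0.76 in Ad-Yap1 WT cells and 72.9% ± 0.78 in hairpin cells (SD, n = 3). All 3 hairpin libraries, at 72.2% to 73.8%, lay above the 6 others, which ran from 66.4% to 67.8%.

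MEF2A, MEF2C and MEF2D are MADS-box factors that bind A/T-rich sites of muscle genes and are held inactive by class IIa histone deacetylases. Mef2a moved apart from its relatives: it fell with Ad-Yap1 WT and rose with Ad-Yap1 shRNA. Mef2a (gene 309957, chr1:128207715-128341681, minus strand) was at 257, 259 and 255 CPM with Ad-GFP, at 213, 201 and 208 in Ad-Yap1 WT cells and at 350.3, 349.6 and 343.5 in hairpin cells. No libraries of different groups overlapped. It was 1.24-fold lower with Ad-Yap1 WT (log2 fold change -0.31, SE 0.05, edgeR adjusted p = 5.849e-05) and 1.35-fold higher with Ad-Yap1 shRNA (0.43, SE 0.05, edgeR adjusted p = 1.369e-06). On log2(TPM + 1), where Mef2a had a change of -0.08 with Ad-Yap1 WT, limma did not call it (adjusted p = 0.338). Mef2d (gene 81518, chr2:187511775-187541285, plus strand) was at 153, 147 and 146 CPM with Ad-GFP, at 93.85, 88.6 and 93.25 in Ad-Yap1 WT cells and at 115, 107 and 108 in hairpin cells. Its 3 groups were separate on this scale, with the hairpin libraries in the middle. Mef2d fell by 0.69 with Ad-Yap1 WT (log2, SE 0.05, edgeR adjusted p = 1.107e-07) and by 0.43 with Ad-Yap1 shRNA (SE 0.05, edgeR adjusted p = 5.726e-06), but the second value turned to 0.04 on log2(TPM + 1) (limma adjusted p = 0.685). Mef2c (gene 499497, chr2:11658534-11822791, plus strand) was at 69.24, 66.85 and 69.24 CPM with Ad-GFP, at 63.1, 52.6 and 60.2 in Ad-Yap1 WT cells and at 54.8, 53.8 and 52.7 in hairpin cells. Both Yap1 groups lay below the controls, and the low second library of the Ad-Yap1 WT group reached the hairpin values. The change of Mef2c was -0.22 with Ad-Yap1 WT (SE 0.07, edgeR adjusted p = 0.009912) and -0.35 with Ad-Yap1 shRNA (SE 0.07, edgeR adjusted p = 0.0005525), and neither passed on log2(TPM + 1) (limma adjusted p = 0.579 and 0.237). The Ad-Yap1 WT value also missed the threshold when scaled by library size alone (-0.09, edgeR adjusted p = 0.246).

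The makeup of the MEF2 family differed between the groups, with no overlap of libraries for Mef2a and Mef2d. Mef2a made up 49.5% ± 0.65 of the summed TPM of the 3 genes with Ad-GFP, 52.5% ± 1.09 in Ad-Yap1 WT cells and 62.5% ± 0.41 in hairpin cells (SD, n = 3). Mef2d made up 39.2% ± 0.98, 35.3% ± 0.66 and 29.8% ± 0.70 in the same order. Mef2c held 11.3% ± 0.39, 12.2% ± 0.63 and 7.67% ± 0.37. Their relative Mef2b was too low to test.

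**Figure D2:**
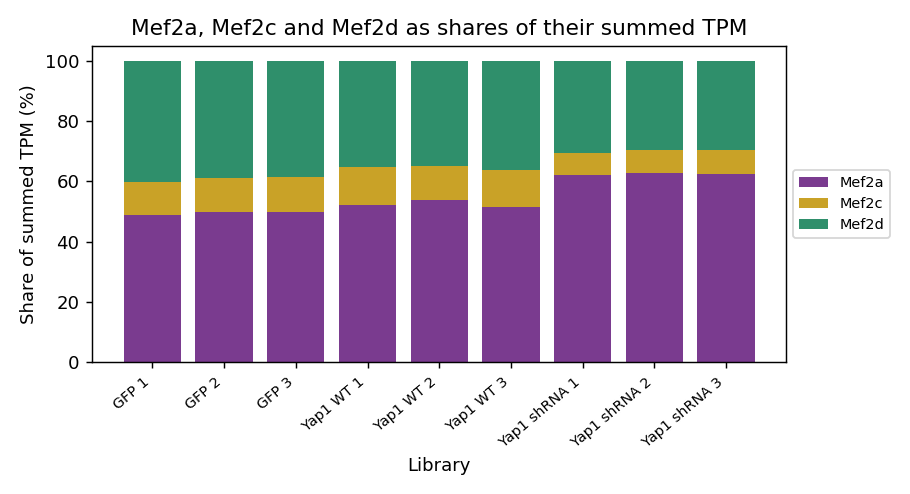
Shares of Mef2a, Mef2c and Mef2d in their summed TPM, in percent, for each of the 9 libraries (stacked bars from 0). Mef2a takes 48.8% to 49.9% with Ad-GFP, 51.6% to 53.7% with Ad-Yap1 WT and 62.1% to 62.9% with Ad-Yap1 shRNA.

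CPM and TPM can disagree on a gene when the mean length of the transcripts that its reads were assigned to differs between groups. Dividing the expected count by the TPM gives a value proportional to that length, which was centred on the median of 11264 genes in each library. Mef2d, listed with 11 transcripts, stood at 86.4% of its Ad-GFP value in Ad-Yap1 WT cells and at 83.5% in hairpin cells. Its log2 values were -0.06, 0.03 and 0.03 with Ad-GFP, -0.22, -0.18 and -0.24 with Ad-Yap1 WT and -0.34, -0.27 and -0.17 with Ad-Yap1 shRNA, so all 6 libraries of the Yap1 groups were below the controls. Among the 11264 genes, Mef2d was at the percentile 0.444 in Ad-Yap1 WT cells and 0.932 in hairpin cells. Mef2a, listed with 4 transcripts, stood at 95.5% and 91.6%, at the percentiles 3.285 and 2.814. Its log2 values were -0.041, 0.034 and 0.007 with Ad-GFP. They were -0.068, -0.078 and -0.054 with Ad-Yap1 WT and -0.21, -0.121 and -0.049 with Ad-Yap1 shRNA. All 6 libraries of the Yap1 groups were thus below the controls for Mef2a too, the nearest by a narrow gap. The corresponding values of Tbx5, listed with 12 transcripts, scattered between libraries (105% with Ad-Yap1 WT, where replicate 2 alone was at 0.25 on the log2 scale). The other 7 factors stayed between 99.2% and 100.1%, including Mef2c with 13 and Gata4 with 7 listed transcripts. No test was run on these lengths, and which transcripts were used was not analysed here.

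**Figure D3:**
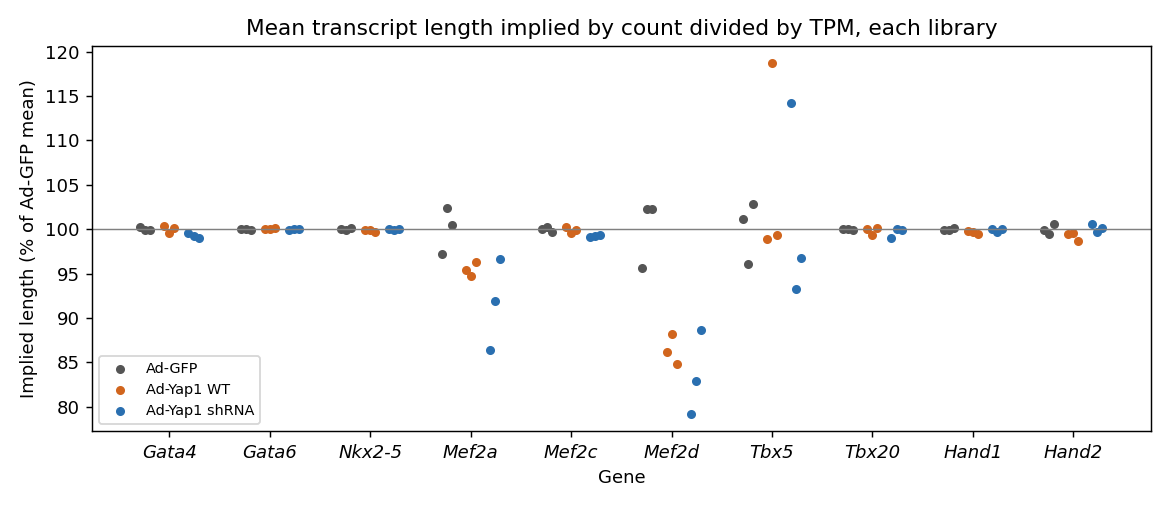
Transcript length implied by expected count divided by TPM, in percent of the Ad-GFP mean, for each factor and library (points). All 6 Yap1 points of Mef2d lie below its 3 Ad-GFP points, and so do those of Mef2a, the nearest by a narrow gap. Tbx5 scatters in both directions, and 7 factors lie near 100.

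HAND1 and HAND2 are basic helix-loop-helix factors, and both were scarce in counts. Hand1 (gene 59112, chr10:43250729-43253296, minus strand) rested on 10 to 47 counts per library. It was at 3.12, 1.69 and 2.11 CPM with Ad-GFP, at 3.89, 2.99 and 3.76 in Ad-Yap1 WT cells and at 2.08, 2.36 and 1.61 in hairpin cells. The lowest Ad-Yap1 WT library lay below the highest control. Hand1 was called higher with Ad-Yap1 WT (log2 fold change 0.62, SE 0.24, edgeR adjusted p = 0.03719). That call was lost with DESeq2 and without a count filter, and on leaving out Ad-GFP replicate 2 or 3 or Ad-Yap1 WT replicate 1 or 3; over those left out, the change ran from 0.44 to 0.90 and the edgeR adjusted p up to 0.154. With Ad-Yap1 shRNA its change was -0.19 (95% interval -0.83 to 0.45, edgeR adjusted p = 0.5584). Hand2 (gene 64637, chr16:36370815-36374433, plus strand) was at 9.16, 9.20 and 9.79 CPM with Ad-GFP, at 9.02, 8.38 and 10.3 in Ad-Yap1 WT cells and at 4.95, 10.3 and 7.89 in hairpin cells. The hairpin libraries spread from below to above all of the controls. The change of Hand2 was -0.03 with Ad-Yap1 WT (95% interval -0.40 to 0.35, edgeR adjusted p = 0.9074) and -0.29 with Ad-Yap1 shRNA (-0.71 to 0.14, edgeR adjusted p = 0.192). Without Ad-Yap1 shRNA replicate 2 the second value became -0.55 (edgeR adjusted p = 0.02042). These intervals still allow a fall of Hand2 to 61.1% of the control with the hairpin.

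**Figure D4:**
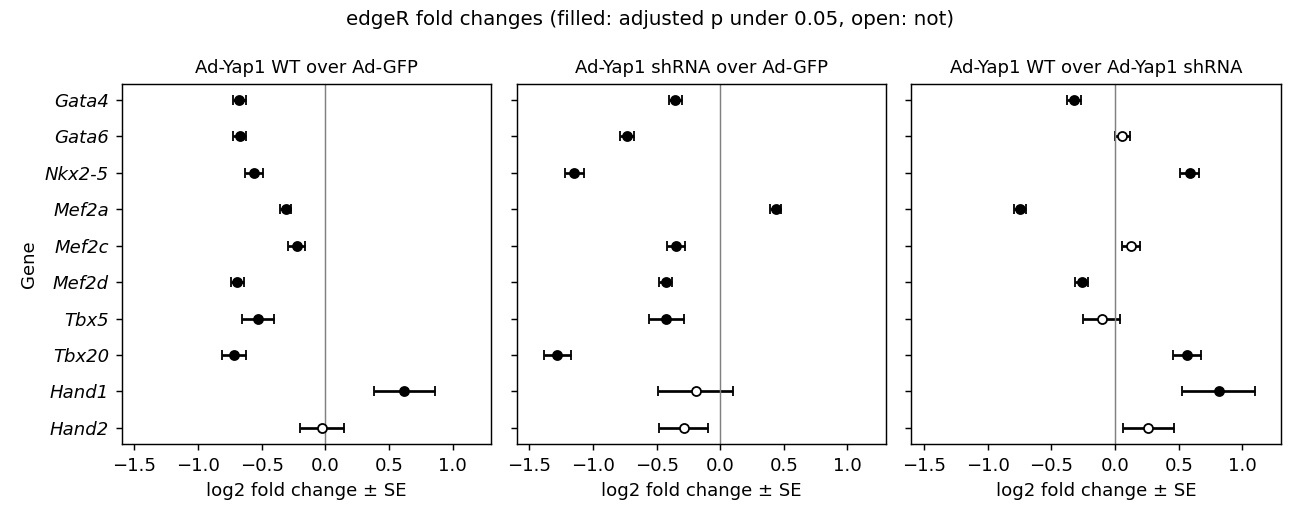
log2 fold change with its standard error from edgeR for the 10 factors in the 3 comparisons; filled points passed an adjusted p of 0.05. Against Ad-GFP, 7 factors are filled and left of 0 in both panels, although Mef2d in the hairpin panel turns to 0.04 on log2(TPM + 1), and Mef2a changes side between the panels.

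The 2 Yap1 groups were also compared with each other, since Yap1 itself differed most between them (log2 fold change 2.80, edgeR adjusted p = 1.593e-09). Of the 10 factors, 6 differed: Nkx2-5, Tbx20 and Hand1 were higher with Ad-Yap1 WT, and Gata4, Mef2a and Mef2d were lower. Over all genes 62.5% were called, 31.2% as higher and 31.3% as lower. In CPM the libraries of the 2 groups were apart for the same 6 factors and for 66.1% of all genes (33.5% higher, 32.6% lower). The median over the factors was 0.09, beside 0.04 over all genes. Mef2a differed by -0.75 (SE 0.05, edgeR adjusted p = 3.357e-08), Nkx2-5 by 0.58 (SE 0.08, edgeR adjusted p = 2.267e-05) and Tbx20 by 0.56 (SE 0.11, edgeR adjusted p = 0.0006018). Gata4 differed by -0.32 (SE 0.05, edgeR adjusted p = 0.0001354) and Mef2d by -0.26 (SE 0.05, edgeR adjusted p = 0.0008981). The Mef2d call was lost with upper quartile scaling (-0.12, edgeR adjusted p = 0.0568). Hand1 differed by 0.81 (SE 0.29, edgeR adjusted p = 0.02438), but not with DESeq2, nor without replicate 1 or 3 of either group (edgeR adjusted p up to 0.0936). For Gata6 the difference was 0.06 with a 95% interval of -0.07 to 0.18, which bounds it within 1.13-fold, though it passed with upper quartile scaling (0.20) and with library size alone (0.17). For Mef2c it was 0.12 (-0.03 to 0.28), and it passed under the same 2 scalings (0.26 and 0.24) and without Ad-Yap1 WT replicate 2 (0.20). Tbx5 differed by -0.10 (-0.42 to 0.21). Hand2 differed by 0.26 (-0.17 to 0.69), and passed without Ad-Yap1 shRNA replicate 2 (0.53, edgeR adjusted p = 0.03528).

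Ordered by TPM, the factors spanned 180.4 to 3.46 with Ad-GFP. Nkx2-5 led with 180.4 ± 8.80 TPM (SD, n = 3), followed by Gata4 at 128 ± 4.40, Gata6 at 62.3 ± 1.83, Mef2a at 59.6 ± 2.64 and Tbx20 at 57.0 ± 3.53. Gata6 and Mef2a, and Mef2a and Tbx20, overlapped between libraries. Below them stood Mef2d at 47.27 ± 3.899, Hand2 at 30.0 ± 0.94 (29.06 to 30.93), Mef2c at 13.6 ± 0.52, Tbx5 at 6.64 ± 0.20 and Hand1 at 3.46 ± 1.18, all separate from their neighbours. With Ad-Yap1 WT the order was Nkx2-5 at 137 TPM, Gata4 at 89.7, Mef2a at 56.3 and Gata6 at 43.7, then Tbx20 at 38.9, Mef2d at 37.9, Hand2 at 33.2, Mef2c at 13.1, Hand1 at 5.96 and Tbx5 at 4.93. Each neighbouring pair from Gata6 to Hand2 overlapped there, as did Hand1 and Tbx5. With Ad-Yap1 shRNA, Gata4 led at 117 TPM, before Mef2a at 102 and Nkx2-5 at 94.5, which overlapped each other. Mef2d at 48.8 and Gata6 at 43.4 overlapped, as did Hand2 at 28.3 and Tbx20 at 27.3, above Mef2c at 12.5, Tbx5 at 5.75 and Hand1 at 3.50. Nkx2-5, first in the other groups, was below Gata4 in all 3 hairpin libraries.

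The 250 bases before the RefSeq start of the gene are given for 4 factors on the build GRCr8, to be set side by side. By their hairpin result, these are the member that rose (Mef2a), the pair that fell most (Nkx2-5 and Tbx20) and one that did not pass (Hand2). Of the 10 factors, 8 matched the RefSeq promoter table (not Gata4 and Mef2c). Capitals mark matches, on either strand, to any of 6 short motifs. For GATA factors the search used AGATAA, and for NKX2-5 it used AAGTG. The T-box motif searched was AGGTGT, and the MEF2 motif was CTA followed by any 4 bases and TAG. The E-box of HAND factors was taken as CATCTG, and the motif of TEAD factors, the partners of Yap1, as GGAATG. The deposited table puts Hand2 on the plus strand of rn6 and RefSeq puts the same gene, 64637, on the minus strand of GRCr8. The strands of Tbx5, whose window was searched but is not printed, differ between the builds in the same way. Each run reads 5′ to 3′ on the gene's strand up to the base before the start.
Mef2a, chr1:130392163-130392412, minus strand: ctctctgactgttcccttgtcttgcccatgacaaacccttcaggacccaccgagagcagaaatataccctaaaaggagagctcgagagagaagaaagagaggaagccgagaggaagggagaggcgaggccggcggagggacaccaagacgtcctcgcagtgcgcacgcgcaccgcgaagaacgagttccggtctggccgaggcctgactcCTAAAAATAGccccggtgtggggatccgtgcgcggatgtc
Nkx2-5, chr10:16848350-16848599, plus strand: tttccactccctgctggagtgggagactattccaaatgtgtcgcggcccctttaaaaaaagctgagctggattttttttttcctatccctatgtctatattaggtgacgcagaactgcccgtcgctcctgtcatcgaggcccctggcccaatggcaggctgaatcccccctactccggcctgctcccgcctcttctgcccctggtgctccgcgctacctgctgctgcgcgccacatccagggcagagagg
Tbx20, chr8:31534010-31534259, minus strand: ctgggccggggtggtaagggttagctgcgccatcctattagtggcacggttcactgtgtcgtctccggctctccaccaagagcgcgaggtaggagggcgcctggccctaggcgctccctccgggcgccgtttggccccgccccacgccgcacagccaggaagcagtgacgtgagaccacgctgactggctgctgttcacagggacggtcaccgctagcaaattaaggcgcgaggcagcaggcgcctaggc
Hand2, chr16:37931489-37931738, minus strand: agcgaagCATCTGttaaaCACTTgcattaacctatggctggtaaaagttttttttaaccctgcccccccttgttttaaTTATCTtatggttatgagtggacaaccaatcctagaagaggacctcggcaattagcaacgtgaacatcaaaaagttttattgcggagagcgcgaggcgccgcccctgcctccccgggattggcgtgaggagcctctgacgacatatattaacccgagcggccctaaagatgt
The Mef2a window held 1 MEF2 match, CTAAAAATAG, from 40 to 31 bases before the start. This motif was found in 3.41% of 33469 promoters of the table. The Hand2 window held a HAND E-box match (bases 243 to 238 before the start), an NKX2-5 match (232 to 228) and a GATA match (172 to 167), which do not overlap. The shares of all promoters with these motifs were 14.0%, 40.6% and 10.3%. The other 6 windows held none of the 6 motifs, and no window of the 8 held the T-box motif (11.6% of all promoters) or the TEAD motif (12.1%). A match describes letters only, and binding was not measured.

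The mRNAs of proteins that work with the factors changed in both directions. Of 20 cofactors, 4 rose and 10 fell with Ad-Yap1 WT (median log2 fold change -0.17, with 63.8% of all genes called), and 9 rose and 9 fell with Ad-Yap1 shRNA (median -0.03, with 78.3% of all genes called), so the called share was near that of all genes with Ad-Yap1 WT and somewhat above it for the hairpin. Smyd1, a muscle-restricted methyltransferase needed for heart development, was at 337 ± 5.03 CPM with Ad-GFP, 64.3 ± 20.8 in Ad-Yap1 WT cells and 13.9 ± 0.29 in hairpin cells (SD, n = 3). It was 5.24-fold and 24.3-fold lower than the control (edgeR adjusted p = 3.654e-08 and 2.856e-10). Smarcd3, the heart-enriched BAF chromatin remodelling subunit, was at 177, 91.9 and 105 CPM in the same order of groups. Srf, the serum response factor, was at 189, 108 and 99.1 CPM, and Hdac5, a class IIa deacetylase that holds MEF2 inactive, at 79.8, 47.6 and 36.8 CPM. All 3 fell in both comparisons. The GATA cofactors behaved otherwise: Zfpm1 (FOG1) was at 86.9 CPM with Ad-GFP, 77.4 in Ad-Yap1 WT cells and 189 in hairpin cells. Zfpm2 (FOG2) was at 29.8, 36.4 and 59.7 CPM. Both were higher with the hairpin, 2.17-fold and 2.00-fold (edgeR adjusted p = 3.085e-09 and 8.231e-09), and with Ad-Yap1 WT Zfpm2 rose and Zfpm1 fell (-0.17), the latter with the opposite sign on log2(TPM + 1). With library size alone the cofactors split into 7 higher and 8 lower with Ad-Yap1 WT, and on log2(TPM + 1) into 6 and 7. The 4 cofactors that rose with Ad-Yap1 WT were Hopx, Wwtr1, Zfpm2 and Tcf12, of which Hopx, Wwtr1 and Tcf12 are named here after their values were seen.

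Other developmental transcription factors of the heart changed more than the 10 factors did at the extremes. Of 26 such genes, 20 were tested, since Irx6 and Mesp1 have no line in the table and Isl1, Tbx1, Mef2b and Sall4 were too low. With Ad-Yap1 WT, 5 rose and 8 fell (median -0.14), and with Ad-Yap1 shRNA 9 rose and 5 fell (median 0.11). The called share was near the 63.8% of all genes with Ad-Yap1 WT and below the 78.3% for the hairpin. Gata5, another cardiac GATA factor, fell from 33.4 ± 0.91 CPM with Ad-GFP to 11.2 ± 1.32 in Ad-Yap1 WT cells and 5.38 ± 0.28 in hairpin cells (log2 fold changes -1.57 and -2.63, edgeR adjusted p = 1.149e-08 and 2.61e-10). Irx4, a ventricle-specific Iroquois factor, was at 43.2, 52.6 and 49.5 CPM with Ad-GFP and at 9.10, 5.30 and 7.35 with Ad-Yap1 WT, a 6.66-fold lower level (edgeR adjusted p = 8.588e-09). With the hairpin it was at 35.96, 30.7 and 26.9 CPM. Its relatives Irx2 and Irx1 were high in the hairpin group: Irx2 was at 4.23 ± 0.46 CPM with Ad-GFP, 8.002 ± 2.275 in Ad-Yap1 WT cells and 61.6 ± 3.96 in hairpin cells. Irx1 was at 1.98 ± 0.72, 2.43 ± 0.93 and 19.0 ± 0.34 CPM. Irx3, which takes part in ventricular conduction, fell in both, from 39.0 CPM to 14.9 and 20.9. Tbx18, a factor of the sinus node and epicardium, rose from 16.8 CPM to 27.0 and 42.1, and Nr2f2, a factor of atrial identity, fell with Ad-Yap1 WT from 28.9 to 15.7 CPM and stood at 28.0 with the hairpin. Named after their values were seen, Tbx3, Tbx18, Irx2, Meis1 and Foxp1 were the 5 that rose with Ad-Yap1 WT, and Gata5, Irx3, Irx4, Meis2 and Tead1 the 5 that fell with the hairpin, where Tead1 had the opposite sign on log2(TPM + 1).

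Genes commonly described as targets of the 10 factors fell, in the median, by far more than the factors. The list was written with earlier results of these data known. Of 27, 26 fell with Ad-Yap1 WT and Gja1 (connexin 43) alone rose (0.49, named after its value was seen), and all 27 fell with Ad-Yap1 shRNA. Over all genes, 31.8% were called lower with Ad-Yap1 WT and 39.1% with the hairpin. The medians were -1.52 and -3.05. Mb (myoglobin) was at 262 ± 19.1 CPM with Ad-GFP, 8.51 ± 3.28 in Ad-Yap1 WT cells and 6.09 ± 0.91 in hairpin cells (SD, n = 3), or 30.6-fold and 42.9-fold lower. Pln (phospholamban, the brake on the calcium pump) was at 1492 ± 72.2, 216 ± 51.0 and 58.4 ± 6.72 CPM. Atp2a2, the calcium pump itself, was at 2404 ± 57.9, 810.1 ± 76.9 and 678 ± 35.2 CPM. The Z-disc gene Csrp3 was at 945 CPM with Ad-GFP, then 329 and 325. It did not differ between the 2 Yap1 groups (log2 fold change 0.02, edgeR adjusted p = 0.7833). Actn2, also of the Z-disc, was at 1601, 463 and 190.1 CPM, and differed between them (1.28, edgeR adjusted p = 1.551e-07). Tnnc1, cardiac troponin C, was at 737, 224 and 58.6 CPM. Between the 2 Yap1 groups 22 of the 27 targets were higher with Ad-Yap1 WT, as were 31.2% of all genes. The list holds all 10 heart muscle markers, so the 2 lists are not independent.

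Of 17 genes described as MEF2 targets, 3 rose and 13 fell in each comparison with Ad-GFP (medians -1.07 with Ad-Yap1 WT and -1.58 for the hairpin). Over all genes, 32.0% rose and 31.8% fell with Ad-Yap1 WT, and 39.2% rose and 39.1% fell with the hairpin. The list of MEF2 targets was also written with earlier results of these data known. Myom2 and Myom1, which tie myosin filaments at the M-band, were at 140.0 ± 5.07 and 373 ± 15.7 CPM with Ad-GFP. Myom2 was at 6.90 ± 0.90 and 9.04 ± 1.21 CPM with Ad-Yap1 WT and Ad-Yap1 shRNA, and Myom1 at 64.2 ± 17.8 and 17.9 ± 1.01. Ckm, muscle creatine kinase, was 11.9-fold lower with Ad-Yap1 WT (273.7 against 23.0 CPM, edgeR adjusted p = 6.91e-09), and Pgam2, a glycolytic enzyme of muscle, 9.63-fold lower. Jun and Klf4, which rose in both comparisons, are stress-responsive transcription factors and not contractile genes. Jun was at 102 ± 2.52 CPM with Ad-GFP, 172 ± 21.4 in Ad-Yap1 WT cells and 482 ± 16.2 in hairpin cells, and Klf4 at 90.6 ± 4.39, 101 ± 3.94 and 252 ± 3.44. The remaining gene that rose was Xirp1 with Ad-Yap1 WT (0.23) and Xirp2 with the hairpin (0.50), both of them actin-binding genes of muscle named after their values were seen. Mef2a, the MEF2 gene with the largest share in every group, rose with the hairpin while 13 of these 17 genes fell. Mef2c and Mef2d fell there in the edgeR test (-0.35 and -0.43), though neither passed on log2(TPM + 1). A link between the levels of the MEF2 genes and those of the described targets was not tested. The cofactor list shares Hdac9, Myocd and Smyd1 with the MEF2 list, and Ckm is in both target lists.

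**Figure D5:**
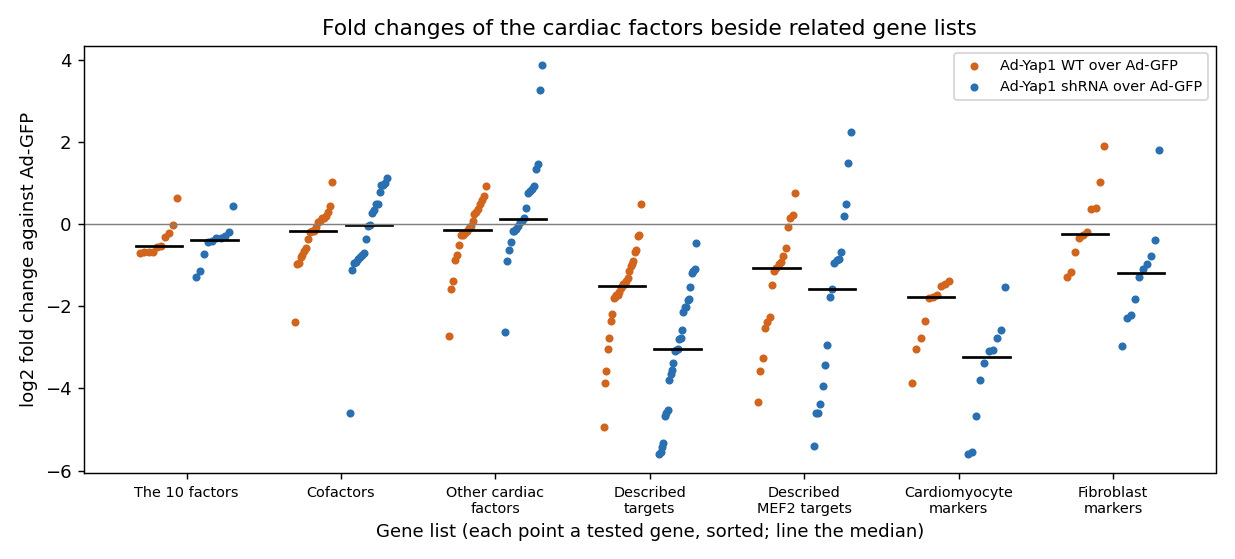
log2 fold change against Ad-GFP (edgeR) of each tested gene in 7 gene lists, sorted within a list, with the list median as a line, for Ad-Yap1 WT and Ad-Yap1 shRNA. The medians of the 10 factors are -0.55 and -0.39, those of the 27 described targets -1.52 and -3.05.

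Markers of other cells in the dish moved beside the factors, and their part in these results was not tested. For comparison, 32.0% of all genes were called higher and 31.8% lower with Ad-Yap1 WT. The shares for the hairpin were 39.2% higher and 39.1% lower. Fibroblast markers, 10 in all, summed to 18810 to 20030 CPM with Ad-GFP, 12530 to 16940 with Ad-Yap1 WT and 7762 to 8499 with Ad-Yap1 shRNA. With Ad-Yap1 WT, Dcn, Lum and Pdgfra rose and Col1a1, Col1a2, Col3a1, Tcf21 and Ddr2 fell. With the hairpin 8 fell and Dcn rose (1.80), while Tcf21, a fibroblast factor, was at 42.6 CPM with Ad-GFP, 19.0 in Ad-Yap1 WT cells and 5.43 in hairpin cells. Smooth muscle and pericyte markers (8 of 9 tested, not Rgs5) summed to 8786 to 9273, 3780 to 5161 and 3425 to 3835 CPM, with 6 and 7 lower and Kcnj8 higher. Endothelial markers (7 of 8 tested, not Emcn) were scarce, at 45.3 to 46.8, 59.7 to 64.9 and 68.8 to 72.4 CPM in sum, with 3 higher and 1 lower with Ad-Yap1 WT and 6 higher and 1 lower with the hairpin. Cdh5, Kdr and Egfl7 were higher in both, Esam was lower with Ad-Yap1 WT (-0.65) and higher with the hairpin (0.95), and Tek was lower with the hairpin (-0.43). Macrophage markers (7 tested, not C1qb, with Cd163 absent from the table) summed to 38.1 to 41.3, 51.0 to 55.0 and 24.5 to 34.8 CPM, with 2 higher and 1 lower with Ad-Yap1 WT and 1 higher and 4 lower with the hairpin (C1qa fell in both and Adgre1 rose in both). Epicardial markers (8) summed to 79.8 to 83.1, 76.7 to 80.8 and 79.3 to 88.9 CPM, with 2 higher and 5 lower with Ad-Yap1 WT and 3 higher and 4 lower with the hairpin; within them Upk3b, Msln, Krt19 and Bnc1 fell in both and Tbx18 and Upk1b rose in both. Neural and glial markers (3 of 6 tested) summed to 39.0 to 40.6, 51.5 to 62.7 and 136 to 157 CPM, mostly through Tubb3. Erythroid markers were not testable (Hba-a1, Hbb and Slc4a1 too low, Alas2 without a line), and Hbb and Hba-a1 were at 0 in all Ad-GFP libraries. In the hairpin libraries Hbb and C1qb were at 0, and with Ad-Yap1 WT Hba-a1 was. Several genes, Acta2 and Tagln among them, are also expressed by young heart muscle cells.

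For the 3 factors with the widest range of group means, the tested genes nearest in pattern were found by the root mean square difference of log2 CPM from the Ad-GFP mean over the 9 libraries, among genes of at least 5 CPM. For Tbx20 these were Sh3pxd2a (0.04), Adam19 (0.06) and Creb3l2 (0.06). For Nkx2-5 they were Cd99 (0.06), Zer1 (0.07) and Wdtc1 (0.07). For Hand1, whose counts were low, the nearest genes were less close: Kif5c (0.19), Ndst3 (0.20) and NEWGENE_1306714 (0.20). With 9 libraries in 3 groups, many genes can share such a pattern.

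The authors' deposited table gives its own log2 fold changes for the factors, such as -1.28 for Tbx20 and -1.15 for Nkx2-5 with the hairpin. The q-values of the authors' deposited table for Hand1, 0.131 with Ad-Yap1 WT against control and 0.135 for Ad-Yap1 WT against the hairpin, and for Tbx5 with the hairpin, 0.0758, are above 0.05. For the other 27 of the 30 values, the side of 0.05 in the authors' deposited table was that of the edgeR test.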

How the data were processed

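Messenger RNA, enriched with oligo(dT) beads and read on a BGISEQ-500 per the labels' protocols, was measured in 9 libraries, 3 per group; the strand is not given in the sources used here. The submitters' processing notes name HISAT2, Bowtie2, RSEM 1.3.1, DESeq2 1.4.5 and rn6, with no roles. The authors deposited expected counts per gene, which are not normalized, and TPM values scaled per library. Log2 fold changes and q-values were deposited by the authors too, per the file headers. 9 FPKM columns and 9 columns of group averages were not used. Expected counts were rounded to whole numbers (89.8% were whole already) and tested with edgeR 4.0.16 in R 4.3.3: filterByExpr, TMM, the quasi-likelihood F test over all 9 libraries with group as the only term, and Benjamini-Hochberg adjustment over 13708 genes, called at an adjusted p under 0.05. Standard errors were derived from the fold change and the F statistic (absolute log2 value over the root of F). Alternatives used DESeq2 1.42.0, limma 3.58.1 on log2(TPM + 1) and log2(TPM + 0.1), other scalings and filters, a replicate block and each library left out. A simulation of the hairpin comparison with 13708 genes scored recovery on few genes: 65 at 1.5-fold, 67 at 2-fold and 66 at 4-fold. The test found 70.8%, 76.1% and 90.9% of these in turn, and 5.42% of its calls were false. The hairpin data had far more calls, 78.3% of all genes, and the Benjamini-Hochberg adjustment depends on that share. The simulated rates therefore do not give the sensitivity in these data. Counts of every pair of replicates differed by more than sampling noise. By rule, the named list genes were up to 4 with the lowest p per list and comparison with Ad-GFP, and those without a line or a test. Others, such as Ryr2, Col1a1, Col1a2, Tek and Krt19, fall outside this rule. They were named as examples of a list or to spell out its calls, with their values known. The members and the lists were chosen with earlier results of these data known. RefSeq gave promoters (GRCr8).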

Additional observations from a re-analysis of the deposited data

How the results depend on the processing

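Counts of called factors were compared under 12 other settings and 9 fits that each left out 1 library. Leaving out a library gave 8 to 9 called factors for Ad-Yap1 WT against Ad-GFP, 7 to 9 for Ad-Yap1 shRNA against Ad-GFP and 5 to 7 between the Yap1 groups. On log2(TPM + 1) and log2(TPM + 0.1), 5 factors were called lower and 1 higher with Ad-Yap1 WT in place of 8 and 1, 5 factors in place of 8 were called with the hairpin, and Mef2d reversed to 0.042 in both (limma); why its levels differ between scales was not tested beyond the implied lengths. The TPM scale shifted the median of all genes by 0.136 with Ad-Yap1 WT and 0.156 for the hairpin, so relative to all genes Mef2d stood at -0.11. Library size alone shifted the median by 0.138 with Ad-Yap1 WT, and upper quartile scaling shifted it by -0.152 with the hairpin. The split of all called genes moved with scaling from 4391 higher and 4360 lower to 5637 and 3344 with library size alone and to 5419 and 2894 on log2(TPM + 1) with Ad-Yap1 WT. With the hairpin it moved from 5371 and 5362 to 6294 and 4242 on log2(TPM + 1) and to 4732 and 6091 with upper quartile scaling. Between the Yap1 groups it moved from 4273 and 4289 to 5561 and 3467 with upper quartile scaling and to 5344 and 3585 with library size alone. A fit with the replicate number as a block called 9, 8 and 6 factors, the numbers without it. With the group mean of each gene removed from log2 CPM, same-numbered libraries of different groups correlated at -0.0313 to 0.0939. The same number was the best match in all pairs of replicate 1, but only in some pairs of the other replicates. The labels state no pairing, so the numbers were not taken to pair samples, and these correlations do not settle it. Among the called genes of the related lists, Zfpm1 with Ad-Yap1 WT and Tead1 with the hairpin changed sign on log2(TPM + 1) and log2(TPM + 0.1), and no other changed sign under these settings. Hand1, at 10 to 47 counts per library, kept its Ad-Yap1 WT call with libraries thinned to equal depth (0.798), and it was not tested under a filter of 5 CPM.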

Other observations

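Within the Ad-Yap1 WT group, replicate 2 had the highest Yap1 level (812 CPM, beside 559 and 622). In that library 9 of the 10 factors were lowest, with Tbx5 as the exception. How many of all genes were lowest there was not counted. Some gaps were small, as for Gata4 (201.7 CPM, beside 207.2 and 212.1). The same library had the lowest sum of the 10 heart muscle markers in its group, 4157 CPM beside 6044 and 5231. Over all genes, the counts of replicates 1 and 2 of this group differed more than those of any other pair of replicates. Their chi-square over degrees of freedom was 11.43, beside 2.337 to 4.814 for the other pairs. With 3 libraries, a relation of Yap1 to these levels was not tested.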
